A study of Mus musculus with 9 samples.

Results

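The genes examined here encode the nuclear subunits of respiratory complexes II to V, read in wild-type mouse hearts and in hearts deficient in Ezh2, a Polycomb histone methyltransferase. The rule names gene symbols and uses no value: Sdha, Sdhb, Sdhc, Sdhd, Cyc1, Cycs, and every symbol of the platform annotation that starts with Uqcr, Cox4, Cox5, Cox6, Cox7, Cox8 or Atp5. Of 19935 genes that could be read at a probe set with a single symbol, 48 met this rule. Complex II held 4 of them, complex III 9, complex IV 16 and complex V 17. The other 2 were Cycs, which encodes the carrier cytochrome c, and Cox7a2l, which encodes a factor that helps complexes III and IV to associate into supercomplexes. Cox7c, a further subunit of complex IV, was present on 3 probe sets that it shares with the symbol Gm12338, so it has no value of its own here.

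RNA came from adult hearts, from the right ventricle together with the interventricular septum, and the strain is given as a mixed background of C57BL/6. Hearts of 5 mice were labelled wild type, with the genotype Ezh2f/f, and hearts of 4 mice were labelled Ezh2-deficient, with the genotype Ezh2f/f;Mef2cAHF::Cre. The floxed allele is thus shared by both groups, and Cre is present in the Ezh2-deficient group alone, so that effects of Cre and of the deletion cannot be told apart. Mef2cAHF::Cre acts in progenitors of the anterior heart field, and the dissected tissue also holds cells that never carried active Cre. The titles of the wild-type samples read f/wt while their genotype field reads Ezh2f/f, and the labels do not settle which is right.

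Complex II, succinate dehydrogenase, takes electrons from the tricarboxylic acid cycle and passes them to ubiquinone. Complex III carries them on to cytochrome c, complex IV hands them to oxygen, and complex V, the ATP synthase, makes ATP from the proton gradient that complexes III and IV help to build. Complex II is encoded by nuclear genes alone, whereas complexes III, IV and V also hold subunits encoded by mitochondrial DNA. The working heart depends on these complexes for nearly all of its ATP, and its muscle cells are packed with mitochondria.

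The promoters of 4 members whose values are described below are shown: Sdhd had the lowest difference of all members, Sdha is the catalytic subunit of the same complex, and Cox7a1 and Cox6a1 are the heart and muscle isoform of one complex IV subunit and the common isoform of another. Each is the 250 bases before the annotated start, from RefSeq on GRCm38.p6, in the direction of transcription. Capitals mark matches, on either strand, to an NRF1-type motif (GCGCA and GCGC with any base between them) or an ETS-type motif (CCGGAAG, read as CTTCCGG on the other strand); nuclear respiratory factor and GABP, an ETS factor, are known activators of many respiratory genes. The regions are chr9:50603850-50604099 (minus strand) for Sdhd, chr13:74350241-74350490 (minus strand) for Sdha, chr7:30183921-30184170 (plus strand) for Cox7a1 and chr5:115348959-115349208 (minus strand) for Cox6a1.
Sdhd: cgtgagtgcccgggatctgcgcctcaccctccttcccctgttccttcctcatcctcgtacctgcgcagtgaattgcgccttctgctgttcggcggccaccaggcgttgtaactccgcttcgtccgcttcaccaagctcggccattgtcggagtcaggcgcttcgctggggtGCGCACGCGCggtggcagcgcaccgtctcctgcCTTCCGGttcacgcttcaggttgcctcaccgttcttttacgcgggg
Sdha: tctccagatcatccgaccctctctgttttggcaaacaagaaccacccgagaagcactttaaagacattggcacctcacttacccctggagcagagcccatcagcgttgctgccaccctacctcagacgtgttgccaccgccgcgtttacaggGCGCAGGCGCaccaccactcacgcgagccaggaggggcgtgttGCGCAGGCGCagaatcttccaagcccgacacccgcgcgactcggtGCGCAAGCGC
Cox7a1: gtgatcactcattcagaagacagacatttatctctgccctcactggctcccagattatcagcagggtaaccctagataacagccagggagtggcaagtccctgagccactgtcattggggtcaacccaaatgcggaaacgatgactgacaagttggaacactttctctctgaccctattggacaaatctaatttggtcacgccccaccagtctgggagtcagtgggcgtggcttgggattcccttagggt
Cox6a1: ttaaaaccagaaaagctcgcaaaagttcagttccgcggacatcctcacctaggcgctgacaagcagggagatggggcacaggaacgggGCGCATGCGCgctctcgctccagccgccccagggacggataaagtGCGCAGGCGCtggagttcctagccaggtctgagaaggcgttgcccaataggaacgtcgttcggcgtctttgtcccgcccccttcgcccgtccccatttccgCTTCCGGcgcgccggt

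Sdhd held 1 NRF1-type and 1 ETS-type match in this window, Sdha held 3 NRF1-type matches, Cox6a1 held 2 NRF1-type matches and 1 ETS-type match, and Cox7a1 held 0 of either. RefSeq promoters, reaching from 250 bases before to 50 after the start, matched 36 of the 48 members through 39 entries. The NRF1-type motif stood in 10 of these 39 promoters (25.6%) and in 4.6% of all 32851 promoters. It was found in the promoters of Sdha, Sdhd, Uqcrc1, Cox6a1, Atp5c1, Atp5g2, Atp5g3, Atp5h, Atp5k and Atp5o.

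The ETS-type motif stood in 13 promoters (33.3%, against 8.86% of all). Those 13 belong to Sdhb, Sdhd, Uqcr11, Uqcrh, Cox6a1, Cox6b1, Cox8a, Atp5e, Atp5h, Atp5j, Atp5k, Atp5l and Atp5md. Motifs of 2 other regulators of mitochondrial genes were rarer. An ERR-type motif (TCAAGGTCA) stood in 2 promoters, of Sdhd and Atp5g3 (5.13%, against 0.423%), and the Sdhd match lies after the start and outside the bases printed above. A YY1-type motif (AAGATGGC) stood in 3, of Atp5j, Atp5j2 and Atp5pb (7.69%, against 2.75%). The general promoter elements CCAAT (56.4%, against 37.4%) and TATAAA (10.3%, against 13.6%) were also counted, both strands searched and overlaps allowed. These matches describe letters in a window and not binding, and motif and expression were not compared.

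The median log2 value of an array ran from 7.19 to 7.25, and the number of arrays limits the precision. Array numbers follow the order of the samples and pair nothing between groups. The arrays carry a letter e (wild type 1 and 2, Ezh2-deficient 1 and 4) or x (the rest) in their titles, whose meaning the labels do not give. Among the x arrays, wild type 3 and 5 and Ezh2-deficient 2 carry a prime, and wild type 4 and Ezh2-deficient 3 do not. The meaning of the prime is not given either. Wild-type arrays 4 and 5 stood apart from the other wild-type arrays in many of the genes described here. Values without them are therefore given below beside the members and medians that moved most. Ezh2-deficient array 3 was often the highest or lowest of its group, but at shares closer to those of all genes, which are given below. Some medians are also given without all 3 arrays. By the Y-linked genes Eif2s3y, Kdm5d and Uty, wild-type array 4 and Ezh2-deficient arrays 1 and 3 came from females. Ezh2 itself averaged 8.73 ± 0.12 (SD, n = 5) without Cre and 8.88 ± 0.11 (SD, n = 4) in the Ezh2-deficient group (log2, limma adjusted p = 0.485). Where its probes lie relative to the floxed part is not given in the sources used here, so this value does not check the labels.

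The subunit genes read slightly lower in Ezh2-deficient hearts, and the differences were small. The mean was lower in the Ezh2-deficient group for 44 of the 48 members, as it was for 51.6% of all genes. The median difference over the members, Ezh2-deficient minus wild type, was -0.09 on the log2 scale, or 93.7% of the wild-type level, beside a median of -0.0034 over all genes. No single member passed the test: at a limma adjusted p under 0.05, 0 of 48 were called, where 10 of 28815 probe sets (0.0347%) and 9 of the 19935 genes (0.0451%) were. Adjusted p-values of the members ran from 0.147 to 0.990. At an unadjusted p under 0.05, 14 members were lower (5.78% of all genes were) and 0 were higher (5.77% of all genes were). The first count was 9 without wild-type array 3, 8 without Ezh2-deficient array 1, 8 without wild-type arrays 4 and 5, 9 among letter e arrays and 7 among letter x arrays. In 8 members every Ezh2-deficient array read below every wild-type array, against 2.19% of all genes, and in 0 members every one read above, against 2.1% of all genes.

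The median difference was -0.13 in complex II (91.2% of wild type), -0.12 in complex III (92.1%), -0.09 in complex V (93.8%) and -0.08 in complex IV (94.8%). All 4 genes of complex II and all 9 of complex III had a lower mean, as did 16 of 17 in complex V and 13 of 16 in complex IV. Whether the complexes differ from each other was not tested. In whole tissue, fewer cells of a type and less RNA per cell cannot be told apart.

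**Figure D1:**
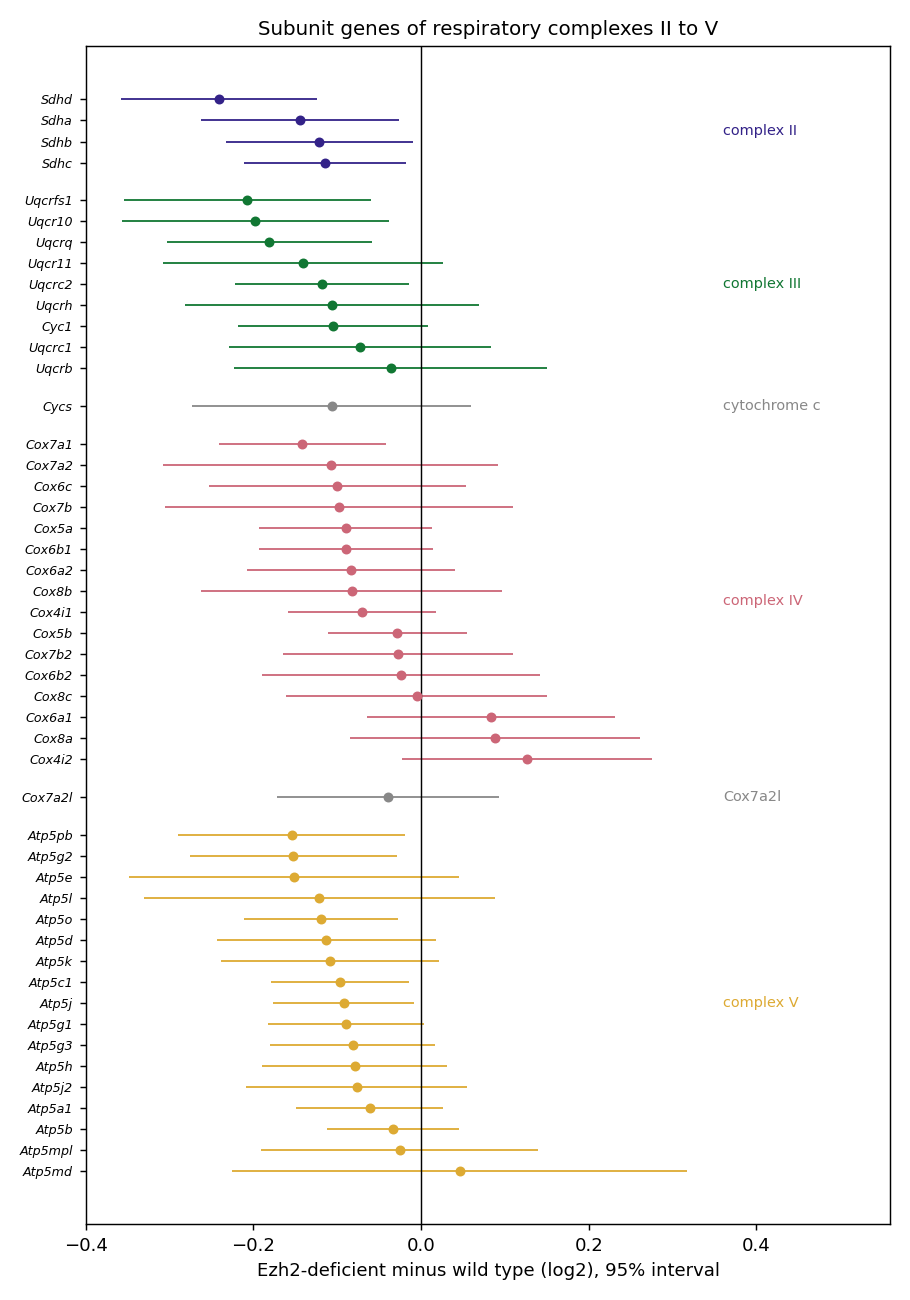
Difference in log2 expression (Ezh2-deficient minus wild type, horizontal axis) for each of the 48 genes, grouped by complex; points are limma estimates and bars their unadjusted 95% intervals (n = 5 wild-type and 4 Ezh2-deficient arrays). Points of 44 genes lie left of 0, and the 4 to the right are Cox6a1, Cox8a, Cox4i2 and Atp5md.

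In complex II all 4 genes had a lower mean with an unadjusted p under 0.05, against 5.78% of all genes. In 3 of them every Ezh2-deficient array read below every wild-type array, against 2.19% of all genes. Sdhd, which encodes an anchor that holds the enzyme in the inner membrane and binds ubiquinone, read 11.88, 11.78, 11.91, 11.87 and 11.86 on the log2 scale in wild-type arrays 1 to 5 and 11.53, 11.75, 11.62 and 11.57 in Ezh2-deficient arrays 1 to 4. The groups did not overlap: the highest Ezh2-deficient array, number 2, was below the lowest wild-type array, also number 2. The difference was -0.24 (SE 0.05), or 84.6% of the wild-type level (95% interval 78.0 to 91.7). Its unadjusted p was 0.0010, its limma adjusted p was 0.147, and an exact two-sided permutation test over 126 assignments gave p = 0.00794, the smallest that these group sizes allow. Among letter e arrays alone Sdhd differed by -0.27 and among letter x arrays by -0.20, with groups of 2 or 3 arrays.

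Sdhc, the partner anchor, read 11.97, 11.99, 11.99, 11.94 and 11.99 in wild-type and 11.78, 11.90, 11.83 and 11.93 in Ezh2-deficient hearts (log2). Its groups also did not overlap, with a difference of -0.11 (SE 0.04, limma adjusted p = 0.386). Wild-type Sdhc values were close together (SD 0.02) and the Ezh2-deficient values were spread more widely (SD 0.07).

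Sdha, the flavoprotein that oxidises succinate, read 13.31, 13.36, 13.39, 13.26 and 13.26 in wild-type and 13.21, 13.17, 13.05 and 13.26 in Ezh2-deficient hearts (log2). The groups met at a single pair of arrays, wild type 4 at 13.257 and Ezh2-deficient 4 at 13.258. The difference was -0.14 (SE 0.05, limma adjusted p = 0.376). Sdhb, the iron-sulfur subunit that relays the electrons, read 12.11, 12.17, 12.17, 12.11 and 12.19 against 12.07, 12.05, 11.90 and 12.11, and its groups came close without overlapping (12.108 in wild-type array 1, 12.105 in Ezh2-deficient array 4). Its difference was -0.12 (SE 0.05, limma adjusted p = 0.428), with -0.05 among letter e arrays and -0.18 among letter x arrays. Ezh2-deficient array 3 was the lowest array for both Sdha and Sdhb.

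**Figure D2:**
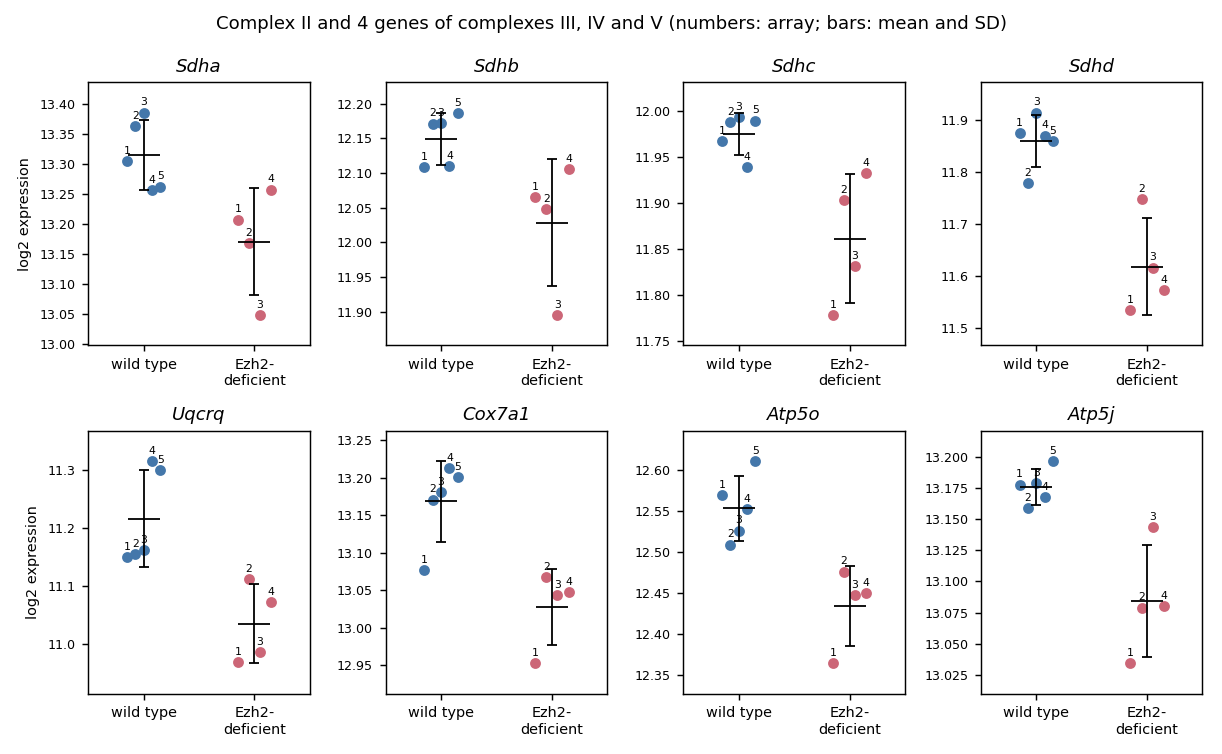
Log2 expression (vertical axes, scaled separately) of the 4 complex II genes and of Uqcrq, Cox7a1, Atp5o and Atp5j in each array, numbered; horizontal lines are group means and bars are 1 SD (wild type n = 5, Ezh2-deficient n = 4). In 7 of the 8 genes the groups do not overlap, and in Sdha they meet at 13.257 and 13.258. Uqcrq, Cox7a1, Atp5o and Atp5j all belong to the 8 of 48 members without overlap, so the panels do not show the share among the members.

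Averaged over its 4 genes, each gene centred on its mean over all arrays, complex II stood at 0.06, 0.07, 0.11, 0.04 and 0.07 in wild-type arrays and at -0.11, -0.04, -0.16 and -0.04 in Ezh2-deficient arrays (log2). The groups did not overlap. The difference of these averages was -0.16.

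All 9 complex III genes had a lower mean, and 4 were lower at an unadjusted p under 0.05, against 5.78% of all genes. Uqcrfs1 encodes the Rieske iron-sulfur protein, which takes electrons from ubiquinol. It read 11.35, 11.31, 11.36, 11.42 and 11.47 in wild-type and 11.20, 11.31, 10.99 and 11.21 in Ezh2-deficient hearts (log2). The groups touched at 11.31, the value of wild-type array 2 and Ezh2-deficient array 2, and Ezh2-deficient array 3 stood lowest. The difference was -0.21 (SE 0.07, limma adjusted p = 0.312). It was -0.12 among letter e arrays, -0.27 among letter x arrays and -0.16 without wild-type arrays 4 and 5. Without Ezh2-deficient array 3 as well it was -0.10. Cyc1, cytochrome c1, which passes the electrons to cytochrome c, differed by -0.10 (SE 0.05, limma adjusted p = 0.50), from 12.84 ± 0.04 (SD, n = 5) to 12.74 ± 0.09 (SD, n = 4).

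Uqcrq, a small membrane subunit, read 11.15, 11.16, 11.16, 11.32 and 11.30 in wild-type and 10.97, 11.11, 10.99 and 11.07 in Ezh2-deficient hearts (log2). Its groups did not overlap, and wild-type arrays 4 and 5 stood above the other 3 wild-type arrays. The difference was -0.18 (SE 0.05, limma adjusted p = 0.290), and it was -0.12 without wild-type arrays 4 and 5. Uqcr10, another small subunit, differed by -0.20 (SE 0.07, limma adjusted p = 0.368), and by -0.11 without those 2 arrays, which read 10.77 and 10.75 where the other wild-type arrays read 10.48 to 10.58.

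The core subunits Uqcrc2 (-0.12, SE 0.05, limma adjusted p = 0.402) and Uqcrc1 (-0.07, SE 0.07, limma adjusted p = 0.742) form the body of complex III on its matrix side. Without wild-type arrays 4 and 5 Uqcrc1 stood at -0.16 and Uqcrc2 at -0.08. Among letter e arrays Uqcrc2 differed by -0.0465 and among letter x arrays by -0.17. Uqcrc2 read 13.29 to 13.50 in wild-type and 13.27 to 13.30 in Ezh2-deficient hearts, so that the 4 Ezh2-deficient arrays lay closer together (SD 0.01) than the wild-type arrays (SD 0.08). The other small subunits were Uqcr11 at -0.14, Uqcrh at -0.11 and Uqcrb at -0.036, the last being the highest difference in the complex. Uqcrb turned to 0.10 within letter e and to 0.07 without wild-type arrays 4 and 5, without which Uqcr11 stood at -0.08 and Uqcrh at -0.012. Cox7a2l, the supercomplex factor, differed by -0.039 (SE 0.06, limma adjusted p = 0.851) and by 0.012 without those 2 arrays.

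Cycs read 12.92 ± 0.14 (SD, n = 5) in wild-type and 12.82 ± 0.08 (SD, n = 4) in Ezh2-deficient hearts, a difference of -0.11 (SE 0.07, limma adjusted p = 0.642). Wild-type arrays 4 and 5, at 13.08 and 13.06, were the highest of the 9 arrays, and without them the difference was -0.011. Cycs differed by 0.0085 among letter e arrays and by -0.18 among letter x arrays. A second probe set for Cycs differed by -0.13, and another, which averaged 8.27, by -0.40 (SE 0.12, limma adjusted p = 0.304).

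Complex IV had the smallest median difference of the 4 complexes. Of its 16 genes, 1 was lower at an unadjusted p under 0.05, which is near the share of all genes (5.78%). This gene was Cox7a1, the subunit isoform of heart and skeletal muscle. Cox7a1 read 13.08, 13.17, 13.18, 13.21 and 13.20 in wild-type and 12.95, 13.07, 13.04 and 13.05 in Ezh2-deficient hearts (log2). The groups did not overlap, since the lowest wild-type array (13.077) lay just above the highest Ezh2-deficient array (13.067). The difference was -0.14 (SE 0.04), or 90.7% of the wild-type level (95% interval 84.6 to 97.1), with a limma adjusted p of 0.308 and an exact two-sided permutation p of 0.0159. It was -0.12 both among letter e arrays and without wild-type arrays 4 and 5, and -0.14 among letter x arrays.

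The other heart and muscle isoforms, Cox6a2 (-0.08, SE 0.06, limma adjusted p = 0.624) and Cox8b (-0.08, SE 0.08, limma adjusted p = 0.746), had a lower mean with groups that overlapped. Cox6a2 read 12.89 to 12.94 in wild-type hearts and 12.86, 12.92, 12.67 and 12.89 in Ezh2-deficient hearts, so that array 3 alone stood well below the others. Cox8b turned to 0.013 when wild-type arrays 4 and 5, which read 12.97 and 13.01, were left out.

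Among the isoforms expressed in most tissues, Cox4i1 (-0.07, SE 0.04), Cox6b1 (-0.09, SE 0.05) and Cox7a2 (-0.11, SE 0.09) had a lower mean, with limma adjusted p-values of 0.568, 0.533 and 0.699. Without wild-type arrays 4 and 5 Cox6b1 stood at -0.043 and Cox7a2 at -0.0022. Cox6a1 (0.08, SE 0.07, limma adjusted p = 0.683) and Cox8a (0.09, SE 0.08, limma adjusted p = 0.717) had a higher mean, at 0.042 and 0.10 without those 2 arrays. Ezh2-deficient array 2 read 10.83 for Cox8a, where the other 8 arrays read 10.42 to 10.58, and the Cox6a1 mean of wild-type hearts was drawn down by array 5 at 9.91. Within letter e both signs turned, to -0.017 for Cox6a1 and -0.046 for Cox8a.

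Cox5a stood at -0.09 (SE 0.05, limma adjusted p = 0.529), Cox6c at -0.10, Cox7b at -0.10 and Cox5b at -0.028. Without wild-type arrays 4 and 5 Cox5a stood at -0.06. The differences of Cox6c, Cox7b and Cox5b rested largely on those arrays: without them Cox6c stood at -0.0071, Cox7b at 0.022 and Cox5b at -0.0046. Cox5a and Cox5b bind the core of the enzyme on its matrix side, and Cox6c and Cox7b cross the membrane. The shared probe sets of Cox7c differed by -0.12 to -0.11.

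Isoforms known from lung or testis showed no common sign. Cox4i2, the isoform known from lung, had the highest difference of all 48 members, 0.13 (SE 0.07, limma adjusted p = 0.537), from 8.33 ± 0.10 (SD, n = 5) to 8.45 ± 0.11 (SD, n = 4). The testis isoforms Cox6b2 (-0.024, SE 0.07, limma adjusted p = 0.937), Cox7b2 (-0.027) and Cox8c (-0.0052) differed by less than their standard errors over all arrays. Without wild-type arrays 4 and 5 they differed by -0.05, -0.06 and -0.031. Their wild-type means were 7.03, 4.39 and 6.71, below the median of every array (7.19 to 7.25). Without a detection call, whether they are expressed here is not known. Without Cox4i2 and the testis isoforms the complex IV median was -0.09 over 12 genes, of which 10 had a lower mean.

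The complex IV median depended on a few arrays. It was -0.08 over all 9 arrays, -0.019 without wild-type arrays 4 and 5, and -0.034 when Ezh2-deficient array 3 was left out as well. Over the same alternatives complex II stood at -0.15 and -0.13, complex III at -0.11 and -0.08, and complex V at -0.07 and -0.07. The count of members with a lower mean was 38 of 48 without wild-type arrays 4 and 5 and 42 of 48 without all 3. Uqcrb, Cox7b, Cox8b, Cox7a2l, Atp5l and Atp5mpl were the members whose sign turned to a higher mean without wild-type arrays 4 and 5.

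Because complex IV has paired isoforms, their difference within each array was also taken, which cancels whatever moves both genes alike. Cox6a2 minus Cox6a1 read 2.71, 2.76, 2.82, 2.75 and 2.97 in wild-type and 2.64, 2.73, 2.43 and 2.74 in Ezh2-deficient hearts, and the group means differed by -0.17. Cox8b minus Cox8a differed by -0.17 as well, from 2.37 ± 0.12 (SD, n = 5) to 2.20 ± 0.16 (SD, n = 4). The groups overlapped in both pairs, and the size rested on few arrays. Cox6a2 minus Cox6a1 differed by -0.0998 without Ezh2-deficient array 3, by -0.0465 among letter e arrays and by -0.27 among letter x arrays. Cox8b minus Cox8a differed by -0.10 without Ezh2-deficient array 2, by -0.09 without wild-type arrays 4 and 5, by -0.0155 among letter e arrays and by -0.29 among letter x arrays.

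Cox7a1 minus Cox7a2 differed by -0.033, which is small beside the spread of 0.15 (SD, n = 5) in wild-type hearts, and by -0.11 without wild-type arrays 4 and 5. Cox4i2 minus Cox4i1 read -4.10, -4.23, -4.30, -4.11 and -4.22 in wild-type and -3.94, -4.16, -3.84 and -4.03 in Ezh2-deficient hearts, a difference of 0.20 with overlap at Ezh2-deficient array 2, and of 0.15 to 0.25 with any 1 array left out. Cox6b2 minus Cox6b1 differed by 0.07, and wild-type array 4 at -5.63 stood apart from the other 4 at -5.32 to -5.20. Without that array the difference was -0.0025. These pair values are a description without a test, and the size of a pair value within an array also reflects how bright each probe set is.

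**Figure D3:**
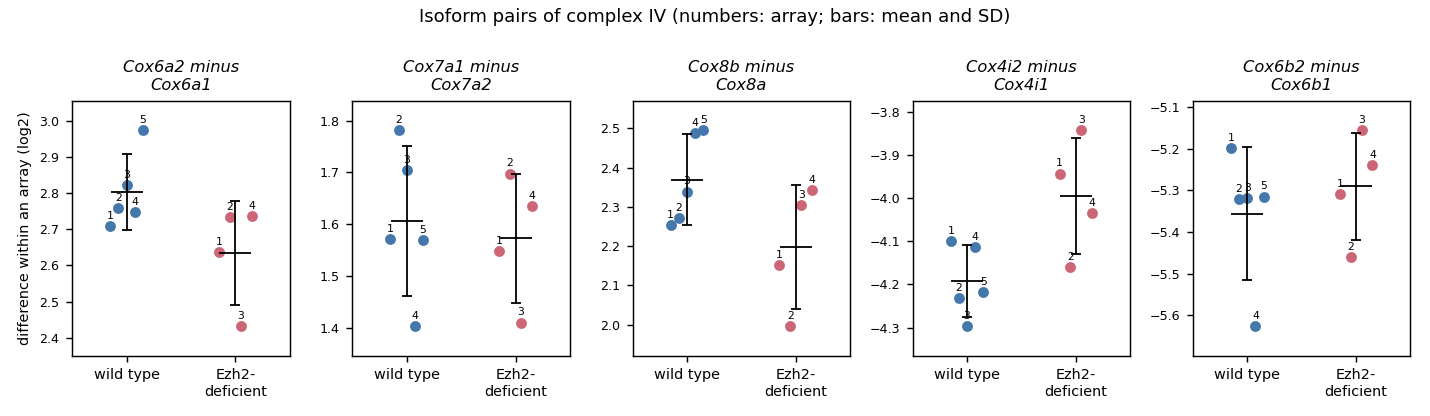
Log2 difference within an array between paired complex IV isoforms (vertical axes, scaled separately), by group, with arrays numbered; horizontal lines are means and bars 1 SD (wild type n = 5, Ezh2-deficient n = 4). The groups overlap in all 5 pairs, and the largest gap between group means is 0.20 for Cox4i2 minus Cox4i1.

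In complex V, 16 of 17 genes had a lower mean and 5 were lower at an unadjusted p under 0.05, against 5.78% of all genes. In the peripheral stalk, the arm that keeps the catalytic head from turning, all 4 genes were lower by their means. Of these 4, 3 had an unadjusted p under 0.05, against the same 5.78% of all genes. Atp5o, the OSCP subunit that joins the stalk to the head, read 12.57, 12.51, 12.53, 12.55 and 12.61 in wild-type and 12.36, 12.48, 12.45 and 12.45 in Ezh2-deficient hearts (log2). The groups did not overlap, and the difference was -0.12 (SE 0.04), or 92.1% of the wild-type level (limma adjusted p = 0.348, exact two-sided permutation p = 0.00794).

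Atp5j, coupling factor 6 of the stalk, read 13.18, 13.16, 13.18, 13.17 and 13.20 in wild-type and 13.03, 13.08, 13.14 and 13.08 in Ezh2-deficient hearts. Its groups did not overlap, at a difference of -0.09 (SE 0.04, limma adjusted p = 0.422). Wild-type arrays 4 and 5 did not stand apart in Atp5o or Atp5j, and without them the differences were -0.10 and -0.09. They did in Atp5pb, subunit b, which differed by -0.15 (SE 0.06, limma adjusted p = 0.403) over all arrays, by -0.07 without them, by -0.026 among letter e arrays and by -0.25 among letter x arrays. Atp5h, subunit d, differed by -0.08, and by -0.025 without those arrays.

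In the catalytic head, Atp5c1, the turning gamma subunit, read 13.58, 13.60, 13.65, 13.66 and 13.64 in wild-type and 13.53, 13.51, 13.55 and 13.52 in Ezh2-deficient hearts. The groups did not overlap, and the difference was -0.10 (SE 0.04, limma adjusted p = 0.391). Atp5a1 and Atp5b, the alpha and beta subunits that bind the nucleotides, differed least in the head, by -0.06 and -0.033, from wild-type values of 13.99 ± 0.03 and 13.88 ± 0.02 (SD, n = 5). Atp5d (delta) stood at -0.11 and Atp5e (epsilon) at -0.15 with a standard error of 0.09. Without wild-type arrays 4 and 5 Atp5d stood at -0.16 and Atp5e at -0.045.

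The 3 genes Atp5g1, Atp5g2 and Atp5g3 encode the same mature c subunit of the membrane ring. They differed by -0.09, -0.15 and -0.08, and Atp5g2 had the smallest adjusted p of the 3 (SE 0.06, limma adjusted p = 0.371). Atp5g2 read 12.20 to 12.40 in wild-type and 12.07 to 12.23 in Ezh2-deficient hearts, with overlap through Ezh2-deficient array 2, and without wild-type arrays 4 and 5 its difference was -0.10. Ezh2-deficient array 2 was also the highest of its group for Atp5g1 and Atp5g3.

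The small membrane subunits of complex V were the least precise. Atp5k (subunit e), Atp5l (subunit g) and Atp5j2 (subunit f) stood at -0.11, -0.12 and -0.08, and Atp5mpl at -0.025. Without wild-type arrays 4 and 5 they stood at -0.05, 0.019, -0.021 and 0.049, and the median over the 5 small membrane subunits went from -0.08 to 0.019. Atp5md, which is known to help ATP synthases pair, had the only higher mean of the complex, 0.046 (SE 0.12, limma adjusted p = 0.924), and 0.21 without those 2 arrays. The median standard error over these 5 genes was 0.07, against 0.04 over the 5 genes of the catalytic head. Atp5md read 12.80, 12.79, 12.87, 13.26 and 13.20 in wild-type and 12.91, 12.95, 13.29 and 12.96 in Ezh2-deficient hearts, so that array 3 of the Ezh2-deficient group and arrays 4 and 5 of the wild type formed the high end of their groups.

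The pattern of wild-type arrays 4 and 5 ran through a large share of the members, while the shares for Ezh2-deficient array 3 were closer to those of all genes. Wild-type arrays 4 and 5 were the 2 highest wild-type arrays in 25 of 48 members (52.1%), against 14.6% of all genes. They were so in 0 of 4 genes of complex II and in 6 of 9 genes of complex III, all 5 small subunits and Uqcrfs1. In complex IV they were so in 8 of 16 genes: Cox5a, Cox5b, Cox6b1, Cox6c, Cox7a1, Cox7a2, Cox7b and Cox8b. In complex V they were so in 9 of 17 genes: all 5 small membrane subunits, Atp5e, Atp5g2, Atp5h and Atp5pb. Cycs and Cox7a2l also had these arrays highest. In 6 members, Sdha, Uqcrc1, Cox4i1, Atp5a1, Atp5d and Atp5g3, the same arrays were the 2 lowest of their group (12.5%, against 22.5% of all genes). Ezh2-deficient array 3 was the highest of its group in 21 members (43.8%, against 33.8%) and the lowest in 13 (27.1%, against 28.4%). Those 13 include Sdha, Sdhb, Cyc1, Uqcrfs1, Uqcrc1, Uqcrc2, Atp5a1, Atp5b and Atp5d. The cause of this array pattern was not tested.

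**Figure D4:**
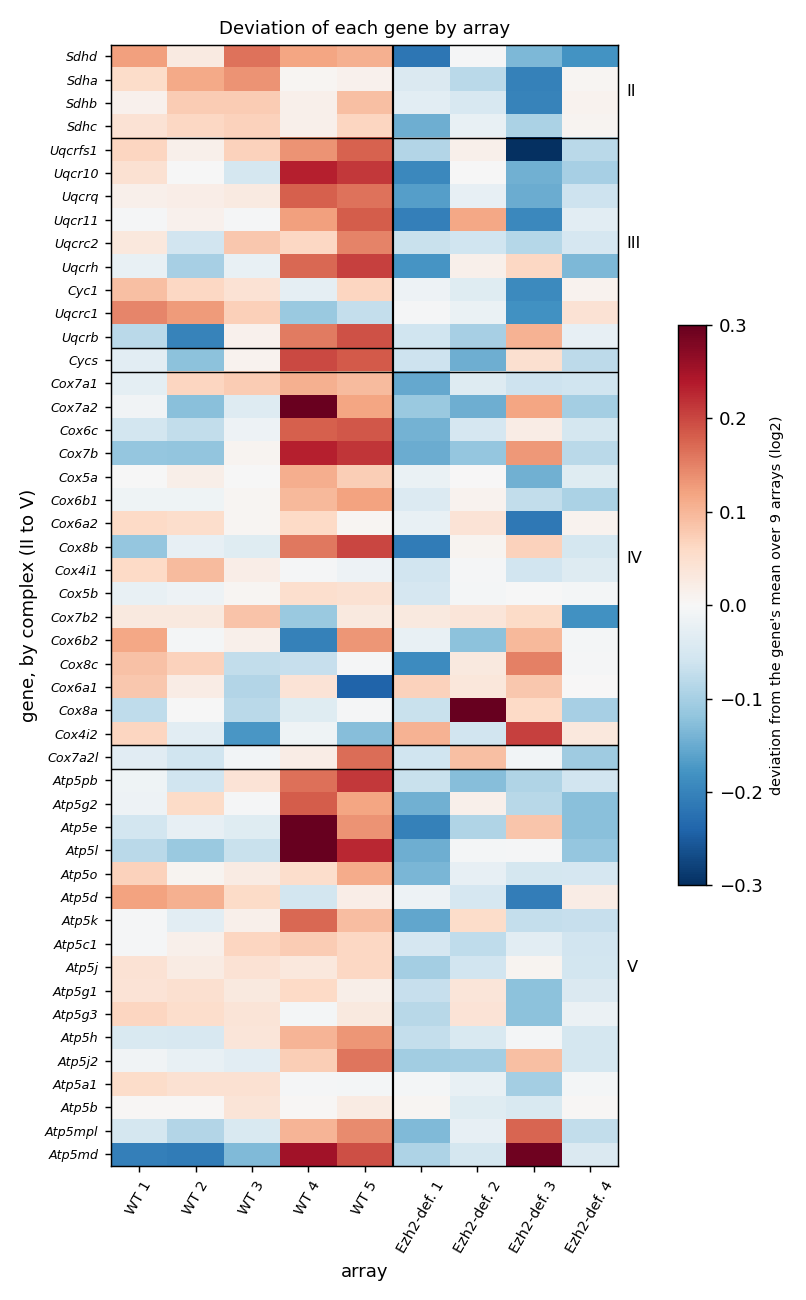
Deviation of each gene (rows, by complex) from its own mean over the 9 arrays (columns) in log2 units, with colour saturating at 0.3 in either direction. Wild-type arrays 4 and 5 are red in most small subunits of complexes III, IV and V and near 0 or blue in Sdha, Uqcrc1, Cox4i1 and Atp5d.

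Averaged over the genes of a complex, wild-type arrays 4 and 5 were the highest of all 9 arrays in complexes III, IV and V. Complex V stood at -0.01, -0.01, 0.01, 0.11 and 0.10 in wild-type arrays and at -0.09, -0.03, -0.02 and -0.05 in Ezh2-deficient arrays, so that the groups came close at wild-type array 2 (-0.0138) and Ezh2-deficient array 3 (-0.0170) without overlapping. Complex III stood at 0.03, -0.01, 0.02, 0.10 and 0.14 against -0.11, -0.01, -0.12 and -0.05, with overlap. Complex IV ranged from -0.02 to 0.06 in wild-type and from -0.06 to 0.03 in Ezh2-deficient arrays and overlapped most.

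**Figure D5:**
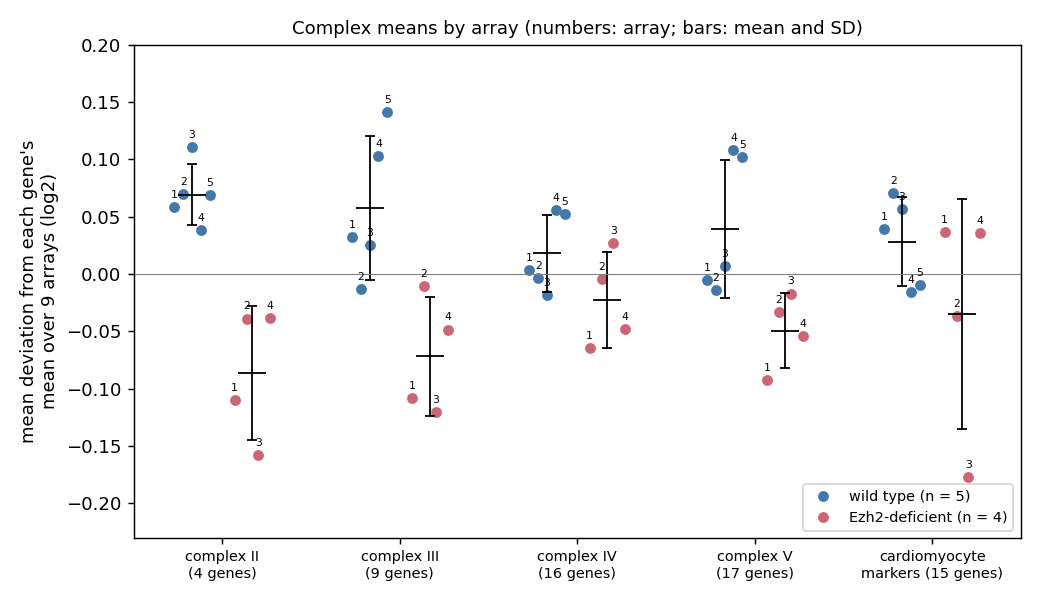
Mean deviation (log2, vertical axis) over the genes of each complex, and over 15 cardiomyocyte markers, in each numbered array; each gene is centred on its mean over 9 arrays, horizontal lines are group means and bars 1 SD (wild type n = 5, Ezh2-deficient n = 4). The complex II groups are apart (0.04 to 0.11 against -0.16 to -0.04), and Ezh2-deficient array 3 lies lowest for the cardiomyocyte markers at -0.18.

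Within letter e the medians were -0.11 for complex II, -0.12 for complex III, -0.05 for complex IV and -0.06 for complex V, and within letter x they were -0.19, -0.14, -0.05 and -0.10. The sign was thus the same within both letters for each complex. Members with a lower mean numbered 42 of 48 within letter e and 40 of 48 within letter x.

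Markers of the tissue's cell types differed alongside these values. Of 15 cardiomyocyte markers 14 had a lower mean (median -0.06, with -0.0080 among letter e arrays and -0.10 among letter x arrays), and their summed level, as a mean over the list, was 13.56 to 13.64 in wild-type and 13.40 to 13.61 in Ezh2-deficient arrays. Tnni3 and Tnnt2, which encode cardiac troponins I and T, differed by -0.17 (SE 0.04, limma adjusted p = 0.239) and -0.09 (SE 0.04, limma adjusted p = 0.476). All 15 fibroblast markers had a higher mean (median 0.50). Their mean level was 9.77 to 10.33 in wild-type and 10.44 to 10.72 in Ezh2-deficient arrays. At an unadjusted p under 0.05, 11 were higher, against 5.77% of all genes. The fibroblast median was 0.41 without wild-type arrays 4 and 5, 0.25 among letter e arrays and 0.67 among letter x arrays. Postn, a matrix protein of activated fibroblasts, differed by 1.37 (SE 0.19, limma adjusted p = 0.0554) and Mfap5 by 0.80 (SE 0.15, limma adjusted p = 0.128).

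Of 12 endothelial markers 11 had a higher mean (median 0.17; 10.42 to 10.81 in wild-type and 10.84 to 10.93 in Ezh2-deficient arrays), with Vwf at 0.75 and Eng at 0.43. The endothelial median was 0.040 without wild-type arrays 4 and 5. The erythrocyte genes Alas2 and Slc4a1 averaged 7.65 to 8.66 in wild-type arrays and 8.31, 8.36, 8.45 and 10.15 in Ezh2-deficient arrays, the last being array 3. When each array's cardiomyocyte marker mean was subtracted, the difference over all 48 members went from -0.09 to -0.022. By complex it went from -0.16 to -0.09 in complex II, from -0.13 to -0.07 in complex III, from -0.09 to -0.026 in complex V and from -0.041 to 0.023 in complex IV. All 4 complexes then overlapped between groups. The subtracted values moved with single arrays: without Ezh2-deficient array 3 the value over all members was -0.07, that of complex II -0.12, complex III -0.0973, complex V -0.08 and complex IV -0.041, and without Ezh2-deficient array 1 the value over all members was 0.015. Among letter e arrays it was -0.05 and among letter x arrays 0.029. The part of these cell types in the shift was not tested further.

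Genes listed with the assembly of the complexes had mostly lower means too, and 0 of them passed the test. All 4 assembly factors of complex II had a lower mean (median -0.13), with Sdhaf2, which attaches the flavin to Sdha, at -0.16 (SE 0.06, limma adjusted p = 0.36) and Sdhaf3 at -0.09. So did all 7 of complex III (median -0.15), with Uqcc1 at -0.17 (SE 0.06, limma adjusted p = 0.376) and Lyrm7, which helps to insert the Rieske protein, at -0.12. Of 24 listed for complex IV, 23 had a lower mean (median -0.09), among them Ndufa4, a subunit of the complex, at -0.06. Cox10, an enzyme of heme A synthesis, differed by -0.17 (SE 0.07, limma adjusted p = 0.403), and the exception was Cox19, a copper-handling factor, at 0.20 (SE 0.07, limma adjusted p = 0.317). Of 4 listed for complex V, 3 had a lower mean (median -0.06), with Tmem70 at -0.15 and Atpaf2 at -0.08. The exception was Atpif1 at 0.13, which encodes an inhibitor of the enzyme and not an assembly factor. These medians moved with the arrays used. Without wild-type arrays 4 and 5 they were -0.027 for complex II, -0.10 for III, -0.038 for IV and -0.0070 for V. Among letter e arrays they were -0.0395, -0.07, -0.043 and 0.0255, and among letter x arrays -0.18, -0.16, -0.10 and -0.12. At an unadjusted p under 0.05, 6 of these 39 genes were lower (5.78% of all genes were) and 1 was higher (5.77% of all genes were).

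COX2, the complex IV subunit encoded by mitochondrial DNA and the only such gene read here, differed by 0.026 (SE 0.04, limma adjusted p = 0.848), and by -0.037 after a further quantile normalization. It read 13.74 to 13.84 in wild-type and 13.81 to 13.86 in Ezh2-deficient hearts, with overlap.

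Of 11 carriers, pores and inner-membrane organisers, 10 had a lower mean (median -0.08, with -0.036 among letter e arrays and -0.11 among letter x arrays). At an unadjusted p under 0.05, 2 were lower, against 5.78% of all genes. The 2 were Vdac1, the outer-membrane channel, at -0.14 (SE 0.05, limma adjusted p = 0.342) and Chchd3, a cristae organiser, at -0.17 (SE 0.07, limma adjusted p = 0.386). Among letter e arrays Vdac1 differed by -0.066 and Chchd3 by -0.0425, and among letter x arrays by -0.20 and -0.26. Of 18 regulators of mitochondrial genes, 14 had a lower mean (median -0.09, with -0.041 among letter e arrays and -0.15 among letter x arrays). Of the 18, 4 were lower at an unadjusted p under 0.05, against 5.78% of all genes. Tfam, which packages mitochondrial DNA and activates its transcription, read 8.77, 8.63, 8.66, 8.88 and 8.89 in wild-type and 8.57, 8.53, 8.50 and 8.62 in Ezh2-deficient hearts. The groups did not overlap, at a difference of -0.21 (SE 0.06, limma adjusted p = 0.291), and wild-type arrays 4 and 5 were the 2 highest. Tfam differed by -0.10 among letter e arrays and by -0.30 among letter x arrays. Tfb1m, a mitochondrial ribosomal RNA methyltransferase, differed by -0.24 (SE 0.08, limma adjusted p = 0.322), with overlap. Its difference was -0.12 among letter e arrays and -0.33 among letter x arrays.

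For 13 members, 22 further probe sets with a single symbol were read, and all 22 had the same sign as the probe set used. They were read on the same arrays, so this agreement is not an independent check of the differences. The median gap between the differences was 0.013 on the log2 scale, and the largest, 0.30, was that of the Cycs probe set at -0.40. Atp5l, with 5 further probe sets between -0.14 and -0.13, and Atp5md, with 2 at 0.04 and 0.05, gave nearly the same value each time.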

How the data were processed

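Each of 9 hearts (5 wild type, 4 Ezh2-deficient) gave 1 Affymetrix array. The deposited values are log2 expression values. The submitters' processing notes name RMA and Affymetrix Power Tools as what the authors used; their versions were not given in the sources used here. The log2 scale was inferred from the span of the values, 2.18 to 15.02, and from RMA. The table gives no detection call. Of 28815 probe sets, 21780 had 1 gene symbol in the platform annotation, 1605 had several and 5430 had none; probe sets with several or no symbols were tested but not named.

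Where a gene had several single-symbol probe sets, the brightest by its mean over the 9 arrays was used. Levels were not compared between probe sets, except that the testis isoforms were set against the array medians. Genotype was the single term of a linear model fitted with limma (lmFit and eBayes, limma 3.58.1 in R 4.3.3). It was tested two-sided, with Benjamini-Hochberg adjustment over all probe sets and a threshold of 0.05. The fit was tried first on simulated data with planted changes larger than the difference of any member. That trial therefore does not show whether differences as small as those of the members could be called. Samples were grouped by the description label. Arrays were taken as separate animals, since the series text counts mice. No batch is recorded, and the meaning of the title letter and its prime is not given. Exact permutations used all 126 assignments.

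The members and gene lists were chosen with earlier results of these data known, so their direction is not independent evidence, and the lists were described by counts and medians and not tested. Named genes were Ezh2, the Sdh genes, Cyc1, Cycs, the isoform pairs, up to 4 members of complexes III, IV and V with the smallest p, the highest difference of each complex, and up to 2 genes of each other list; Atp5j was added because its groups did not overlap, and the other members are named once. Alternatives were a further quantile normalization, median centring, the title letter with and without its prime as a block, each letter alone, a Y-linked covariate, array weights, a filter on dim probe sets and left-out arrays. The marker lists for atrial, smooth muscle, macrophage, lymphocyte, adipocyte, skeletal muscle and mesothelial cells are given in the closing section.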

Additional observations from a re-analysis of the deposited data

Results flagged for a closer look

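In 158 sets of 4 or 5 arrays examined, a single array stood far from the rest of its group in 10, and chance gives about 1 in 20. Of these, 6 were Ezh2-deficient array 3. It was the highest of its group for Cox7a2 (11.63), Atp5md (13.29), COX2 (13.86), Alas2 (11.57) and Slc4a1 (8.74), and the lowest for Atp5a1 (13.86), all on the log2 scale. Ezh2-deficient array 1 was the lowest for Cox5b at 13.09, and Ezh2-deficient array 4 the lowest for Cox7b2 at 4.20. Wild-type array 5 was the lowest for Eng at 10.16, and wild-type array 4 the lowest for Cox6b2 minus Cox6b1 at -5.63. A test of whether the genotype difference depended on the title letter called 0 probe sets and 0 members, and 1 member had an unadjusted p under 0.05.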

How the results depend on the processing

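No member was called in any of the 23 settings tried, in which the limma adjusted p of Sdhd ran from 0.0710 to 0.651. The number of probe sets called was 10 in the analysis reported. It was 17 with arrays centred on their medians, 17 with the title letter as a block, 27 with the letter and its prime as a block, 0 within letter e, 0 within letter x, 3 with the Y-linked covariate, 37 with array weights, 20 without the dimmest 25% of probe sets, 5 without wild-type arrays 4 and 5, and 6 when Ezh2-deficient array 3 was dropped as well, the last setting chosen after seeing the data. Leaving out each array in turn gave 3 to 15 (5, 4 and 3 without wild-type arrays 2, 3 and 4, and 3 without Ezh2-deficient array 1 or 2). Members lower at an unadjusted p under 0.05 numbered 14, and 9, 7, 9, 8 and 5 within letter e, within letter x, with the Y-linked covariate, without wild-type arrays 4 and 5 and without all 3 arrays. Leaving out 1 array gave 8 to 15, with 9 without wild-type array 3 and 8 without Ezh2-deficient array 1. Members with a lower mean numbered 38 to 45 over all settings and 41 to 45 with 1 array left out.

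The complex II median was -0.19 within letter x, and the complex IV median -0.0189 without wild-type arrays 4 and 5 and -0.0338 without all 3 arrays. With 1 array left out the medians ran from -0.16 to -0.10 in complex II, -0.15 to -0.10 in III, -0.08 to -0.049 in IV (-0.049 without wild-type array 5) and -0.11 to -0.08 in V. Of 567 values for 27 named members, 551 kept their sign and side of the threshold and 16, in 7 genes, turned sign. Within letter e these were Cycs 0.0085, Cox6a1 -0.0165, Cox8a -0.0455 and Uqcrb 0.0965, and Slc4a1, an erythrocyte marker, turned to -0.0295. Cox6b2 was 0.0062 within letter x. Atp5md was -0.0126 with the Y-linked covariate. Without wild-type arrays 4 and 5, Cox8b was 0.0127 and Uqcrb 0.0685, and Uqcrb was 0.0267 without all 3 arrays. With 1 array left out, Cox6b2 ran from -0.0775 to 0.0121 (0.0022 without wild-type array 1, 0.0065 without wild-type array 5, 0.0121 without Ezh2-deficient array 2), Atp5md from -0.0425 to 0.1142 (-0.0005 without wild-type array 1, -0.0012 without wild-type array 2, -0.0425 without Ezh2-deficient array 3), and Uqcrb from -0.0902 to 0.0072 (0.0072 without wild-type array 5). COX2 was -0.0368 after the further quantile normalization. Postn passed the threshold with array weights (adjusted p = 0.0476), without the dimmest 25% of probe sets (0.0434) and without wild-type array 1 (0.0461). The isoform pairs and the values less the cardiomyocyte marker mean were recomputed on fewer arrays after seeing the data, with the values given above. The cause of these changes was not tested, beyond the smaller number of arrays where arrays were left out. No paired analysis was possible because the labels give the groups no shared replicate numbers.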

Other observations

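Other cell types that the dissected tissue could hold were read in the same way, and 0 of their markers passed the test. Of 5 atrial markers 5 had a higher mean (median 0.10), of 10 macrophage markers 10 (median 0.19), of 6 lymphocyte markers 5 (median 0.24) and of 9 smooth muscle and pericyte markers 7 (median 0.09). Of 5 mesothelial markers 5 had a higher mean (median 0.11), of 5 adipocyte markers 4 (0.12), of 5 brown adipocyte markers 3 (0.08) and of 8 skeletal muscle markers 5 (0.03). Several of these medians had opposite signs in arrays of the 2 title letters. The atrial median was -0.28 among letter e arrays and 0.90 among letter x arrays, the mesothelial median -0.18 and 0.33, the adipocyte median -0.09 and 0.29, the brown adipocyte median -0.0385 and 0.22, the macrophage median -0.0215 and 0.40, and the skeletal muscle median -0.0085 and 0.047. The lymphocyte median was 0.0455 and 0.33, and the smooth muscle and pericyte median 0.10 and 0.0425.

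Of the 18 regulators of mitochondrial genes, 4 had a higher mean: Pprc1 at 0.06, Gabpb1 at 0.027, Yy1 at 0.022 and Polg at 0.0061. Among those with a lower mean, Ppargc1a, the coactivator PGC-1 alpha, differed by -0.26 (SE 0.13, limma adjusted p = 0.498), with Ezh2-deficient array 3 at 9.50 and the other 8 arrays at 9.95 to 10.30. Esrra, which encodes an estrogen-related receptor, differed by -0.12 (SE 0.05, limma adjusted p = 0.470), Gabpa by -0.09 (SE 0.04, limma adjusted p = 0.496) and Nrf1 by -0.06 (SE 0.08, limma adjusted p = 0.804). These last 4 regulators were picked for their known role after their values were seen.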
